A study of Mus musculus with 4 samples.

Results

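The transcripts of 10 secreted growth factors and growth factor regulators for tissue repair (Igf1, Pdgfa, Pdgfb, Pdgfc, Hbegf, Hgf, Tgfb1, Fgf2, Grem1 and Ereg) were followed through the leukocytes of the mouse brain and dura mater, the outer meningeal layer. The members were chosen by name, and their rows were taken from the expression matrix of each of 4 single-cell libraries, in which a gene that is not listed counts as 0. Of the 10, 9 were listed in at least 1 library and 8 in every library, out of 19491 genes listed in any library. Ereg was listed in none, and Grem1 in the injured brain alone.

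The libraries held CD45+ cells, CD45 being the surface protein that marks leukocytes, sorted by flow cytometry from C57BL/6J mice of 8 weeks and labelled control brain, control dura mater, injured brain and injured dura mater. Injury was photothrombotic injury (PTI), in which a light-activated dye clots the superficial vessels under the skull, and tissue was taken 3 days later. The controls were labelled CT and are taken here, as an assumption, to be the sham-operated mice of the study, and the number of mice pooled in a library was not given in the sources used here. There was 1 library per condition, so no difference between conditions has a replicate check, and the intervals below are exact 95% intervals that cover counting error only. The kept cells numbered 3619 in control brain, 3438 in control dura mater, 4439 in injured brain and 2607 in injured dura mater, and their median depth was 8251, 9310, 14271 and 14156 unique molecular identifiers (UMIs, 1 per captured transcript). Pairs of libraries shared 3 to 11 cell barcodes. The cells fell into 30 clusters, of which 27 were named from marker lists into 23 classes, and each name is to be read as "-like". Levels are given as CPM, the UMIs of a gene per 1000000 UMIs of a class in a library. Although the sort was for CD45, 62 endothelial-like and 28 fibroblast-like cells were among those kept.

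These proteins act on the cells that rebuild a wound. IGF1 binds a receptor tyrosine kinase and supports survival and growth of many cell types, and the PDGF chains pair into dimers that recruit pericytes, smooth muscle cells and fibroblasts through PDGFRα and PDGFRβ. HBEGF and EREG are ligands of the EGF receptor family, HGF is the ligand of the receptor MET, TGFβ1 is secreted in a latent form and governs matrix production and macrophage identity, FGF2 is an angiogenic factor, and GREM1 binds and blocks bone morphogenetic proteins. Macrophages at the borders of the brain, microglia in its parenchyma and monocyte-derived macrophages that enter after injury are known sources of several of them.

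The genes lie on separate chromosomes or far apart in the mouse genome (GRCm38, GENCODE vM21). Igf1 spans chr10:87858265-87937042 on the plus strand, Pdgfa chr5:138976014-138997370 on the minus strand, Pdgfb chr15:79995874-80014977 on the minus strand and Pdgfc chr3:81036416-81214040 on the plus strand. Hgf spans chr5:16553495-16620152 on the plus strand and Tgfb1 chr7:25687002-25705077 on the plus strand. Fgf2 spans chr3:37348346-37410108 on the plus strand and overlaps Gm43439 on the same strand and Nudt6 and Fgf2os on the other, so its few UMIs are also uncertain as to the gene they came from. Igf1, Pdgfa, Pdgfb, Pdgfc and Ereg each overlap an antisense transcript, and whether the counting used strand was not given in the sources used here. For Tgfb1, Igf1 and Pdgfc, the most evenly spread member and a pair concentrated in the same macrophages, the 250 bases before the RefSeq transcript start (GRCm38.p6) are printed, 5′ to 3′ on the gene's strand. The windows are chr10:87860861-87861110 for Igf1, which lies inside the annotated gene span, chr3:81036166-81036415 for Pdgfc and chr7:25686752-25687001 for Tgfb1. Capitals mark matches, on either strand, to TATAAA, the GC box GGGCGG, the AP-1 letters TGANTCA, the PU.1 core GAGGAA or CCAAT.
Igf1: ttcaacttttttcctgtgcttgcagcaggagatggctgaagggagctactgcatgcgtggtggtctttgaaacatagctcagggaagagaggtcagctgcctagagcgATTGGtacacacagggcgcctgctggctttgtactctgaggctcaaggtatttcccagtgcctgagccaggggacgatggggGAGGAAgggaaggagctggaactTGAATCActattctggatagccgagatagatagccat
Pdgfc: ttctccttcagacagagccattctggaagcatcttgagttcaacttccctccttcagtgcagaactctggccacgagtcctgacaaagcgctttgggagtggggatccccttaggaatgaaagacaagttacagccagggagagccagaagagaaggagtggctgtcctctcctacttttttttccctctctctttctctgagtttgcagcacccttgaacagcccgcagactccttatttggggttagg
Tgfb1: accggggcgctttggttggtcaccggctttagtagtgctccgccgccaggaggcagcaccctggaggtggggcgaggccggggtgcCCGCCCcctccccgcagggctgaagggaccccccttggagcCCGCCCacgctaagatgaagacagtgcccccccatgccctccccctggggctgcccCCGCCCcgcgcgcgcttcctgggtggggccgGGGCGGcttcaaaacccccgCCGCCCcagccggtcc
The Igf1 window held 1 match each to CCAAT, to the PU.1 core and to the AP-1 letters, none overlapping another, and the last of them began 37 bases before the start. The Tgfb1 window held 5 GC boxes in a sequence of 75.2% G and C, and the Pdgfc window, at 50.8%, held no match to any of these motifs. Among 32851 RefSeq promoters of the same length, 6.749% held TGANTCA, 23.25% GAGGAA, 33.85% CCAAT, 32.74% GGGCGG and 12.37% TATAAA. RefSeq windows were found for 7 of the 10 members, and those of Pdgfb, Hbegf and Ereg were not used here.

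The 8 members listed in every library differed in where they were found. Among the named immune classes, Tgfb1 was read in nearly every one. Igf1 and Pdgfc were highest in Lyve1+ macrophages, Hbegf in γδ T cells and, in the brain, Pdgfb in microglia. In the dura mater Pdgfb was highest in Lyve1- macrophages of the control and infiltrating macrophages of the injured library. Hgf was highest in Ly6C low monocytes, except in the injured brain, where infiltrating macrophages were at 17.2 CPM and Ly6C low monocytes at 15.9. Over all kept cells of control brain, control dura mater, injured brain and injured dura mater, Igf1 was at 25.8, 66.4, 40.5 and 98.4 CPM, higher in the dura mater than in the brain of either condition. Tgfb1 was at 273.3, 302.4, 278.5 and 280.7, nearly level. Pdgfb was at 72.7, 16.1, 39.5 and 26.3, with the brain above the dura mater, and Pdgfa was at 13.1, 8.74, 32.2 and 16.0.

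**Figure D1:**
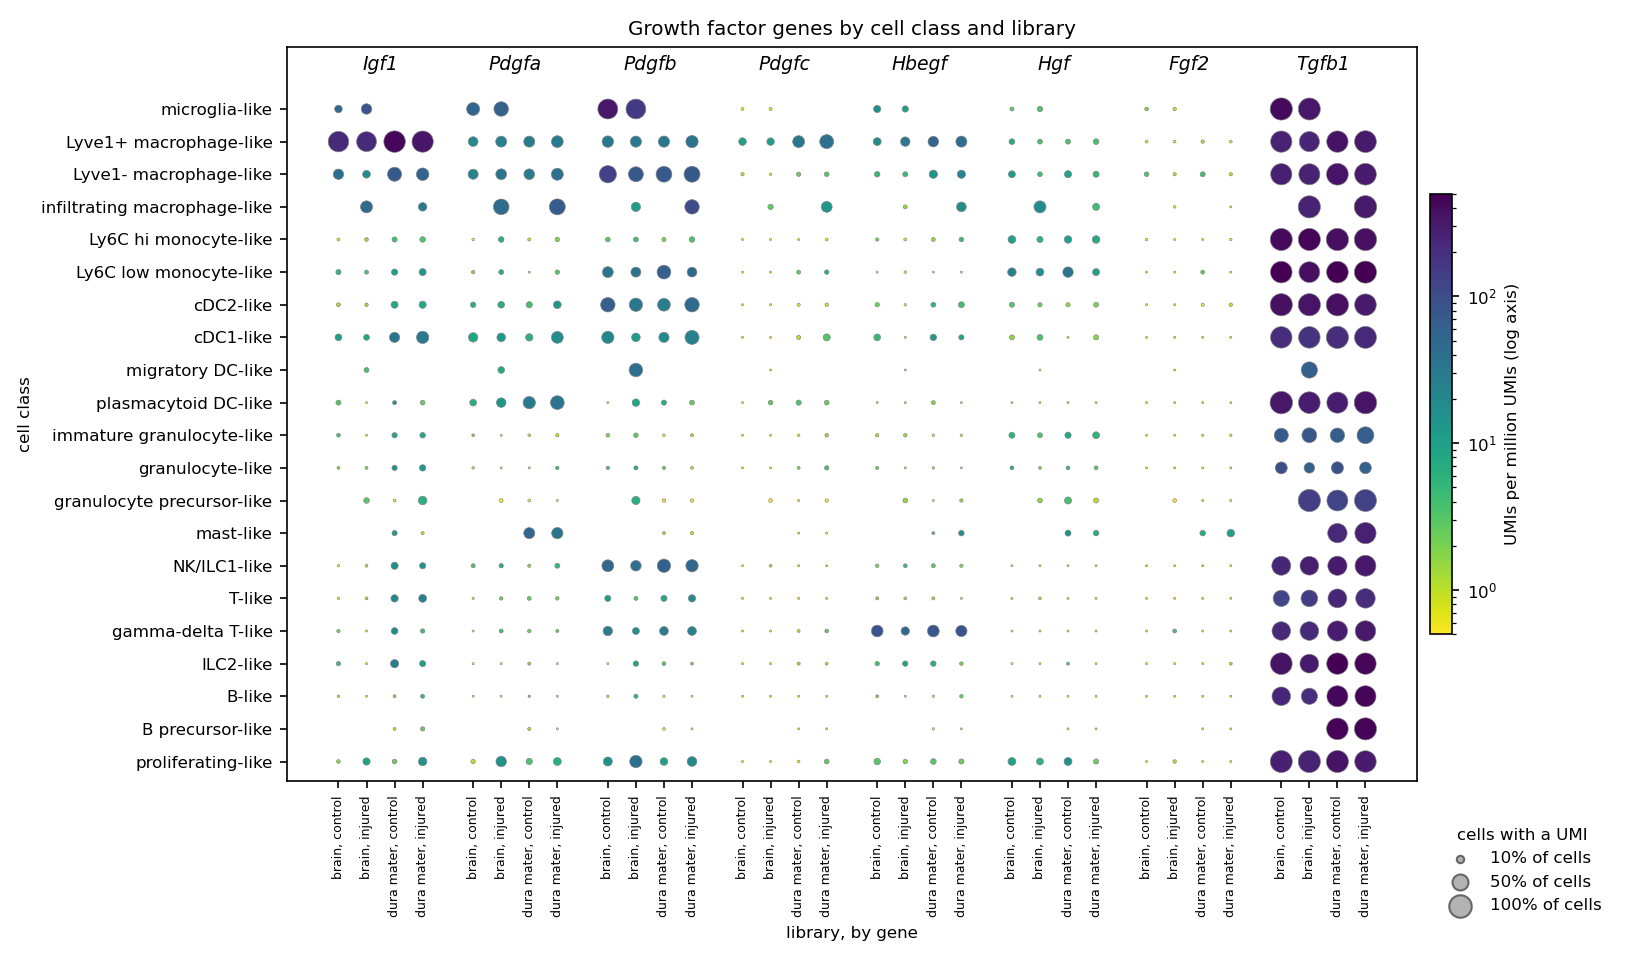
Levels of the 8 members listed in every library, one block per gene, by immune class (rows) and library (columns); colour gives CPM on a log scale and point size the percent of cells with at least 1 UMI. Tgfb1 is present in nearly every row. Igf1 peaks in Lyve1+ macrophages at 218.6 to 438.6, Hbegf in γδ T cells and, in the brain libraries, Pdgfb in microglia.

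T-like and B-like cells, which are not known as a source of most of these factors, were pooled as a rough measure of free RNA in the droplets. For Tgfb1, which both classes held, they give no such measure. In the 4 libraries, in the order control brain, control dura mater, injured brain and injured dura mater, which is kept throughout, they held a UMI of Igf1 in 0.37, 2.7, 0.49 and 5.41% of cells, at median depths of 5869, 5626.5, 5169 and 5590 UMIs. For Pdgfb the share was 1.58 to 3.79%, for Pdgfa 0.09 to 0.97%, for Hbegf 0.45 to 1.08% and for Hgf at most 0.49%, while Pdgfc was not read in any of these cells. The Igf1 level of the pooled cells was thus highest in the dura mater, at 6.48 CPM in the control and 12.98 in the injured library. The classes differed there, with T-like cells at 20.4 and 24.9 and B-like cells at 1.74 and 5.32. The pooled value is therefore not a uniform background, and the source of the Igf1 UMIs in T-like cells was not tested. Dura mater granulocytes (14.4 and 12.2 CPM) and γδ T cells of the control dura mater (18.3) lay in the same low range.

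Among the immune classes, Igf1 was highest in Lyve1+ macrophages, the perivascular and meningeal macrophages that carry Lyve1, Cd163 and Mrc1, in each of the 4 libraries. The levels were 218.6 (interval 197.4 to 241.5), 438.6 (419.3 to 458.6), 218.7 (198.5 to 240.3) and 340.0 (328.3 to 352.0) CPM in 138, 353, 172 and 561 cells. Both dura mater libraries were above both brain libraries, and neither brain interval reached a dura mater one. A UMI of Igf1 was found in 83.3, 91.8, 77.9 and 89.7% of these cells at median depths of 10583.5, 11748, 8464 and 16064 UMIs, far above the T-like and B-like shares. The Lyve1- macrophages, with the class II genes H2-Aa and H2-Ab1, were at 43.0, 71.9, 17.6 and 54.7 CPM, with the injured brain lowest. Next to them, cDC1, a dendritic cell subset, were at 11.6, 35.3, 8.37 and 30.5, and Ly6C hi monocytes, the circulating precursors of infiltrating macrophages, were at 0.65, 4.09, 1.37 and 3.4, beside 0.69, 6.48, 0.8 and 12.98 in T-like and B-like cells. In the injured brain the order of the named classes was Lyve1+ macrophages, microglia, infiltrating macrophages and Lyve1- macrophages, with intervals that did not overlap between these neighbours. The 28 fibroblast-like cells of all libraries together were at 427.7.

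Microglia, the resident macrophages of the parenchyma, held Igf1 at 47.7 CPM (41.8 to 54.1; 241 UMIs, 429 cells) in control brain and 83.6 (78.3 to 89.3; 896 UMIs, 627 cells) in injured brain, a log2 ratio of 0.81 (0.60 to 1.02). The gene was carried by few of the cells, 10.7% in control and 21.2% in injured brain, and a single cell held up to 56 UMIs. At a finer clustering the microglia fell apart into a subcluster with high P2ry12, the purinergic receptor of homeostatic microglia, and one led by Il1a, Sparc, Lpl and Gpr84. The P2ry12-high cells were 83.9% of control and 53.1% of injured microglia, and their Igf1 was at 2.3 and 6.1 CPM from 8 and 16 UMIs, a log2 ratio of 1.41 (0.10 to 2.84). The Lpl-high cells were 15.9% of control and 46.9% of injured microglia (68 and 294 cells), and their Igf1 was at 149.1 and 108.8, a log2 ratio of -0.45 (-0.67 to -0.24). Within the Lpl-high cells, then, Igf1 was lower in the injured library, while they made up more of the class; their median depth was 22515.5 and 27873.5 UMIs. The control value rested on few cells, since 10 of them held 70.7% of its UMIs, against 33.6% in the injured library. In the same subcluster, Spp1 was at 328 and 3668 CPM and Mrc1, a border macrophage gene, at 352 and 59.8; the part of other macrophages in it was not tested. The 8 granulocyte markers summed to 1343 CPM in control and 3035 in injured microglia, and their part in these values was not tested.

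**Figure D2:**
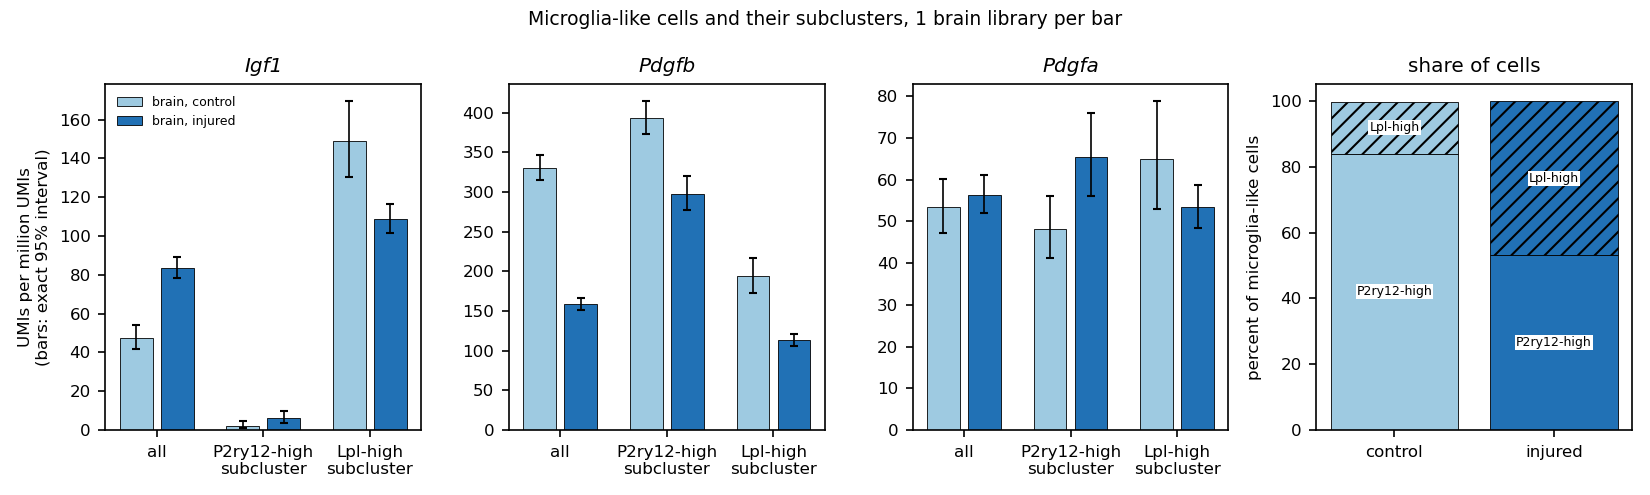
Igf1, Pdgfb and Pdgfa (CPM, with exact 95% counting intervals) in all microglia-like cells and in the P2ry12-high and Lpl-high subclusters, control against injured brain, beside the percent of microglia in each subcluster. Igf1 lies at 2.3 and 6.1 in the P2ry12-high cells and at 149.1 and 108.8 in the Lpl-high cells, and Pdgfb is lower in the injured library in both.

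Pdgfb, the PDGF chain that recruits pericytes through PDGFRβ, was highest in microglia among the immune classes of the brain, at 330.7 CPM (315.0 to 346.9) in control and 158.3 (150.9 to 166.0) in injured brain. Nearly the same share of cells held a UMI, 78.8 and 77.5%. The lower level in the injured library was seen in the P2ry12-high cells, at 393.3 and 298.0 (log2 ratio -0.40, -0.53 to -0.27), and in the Lpl-high cells, at 193.5 and 113.0 (-0.78, -0.97 to -0.58), and was smaller within each than over the class. Platelet and megakaryocyte genes other than Pf4 summed to 53.6 CPM in control and 15.6 in injured microglia, nearly all of it Gp9 (51.6 and 14.7), while Ppbp was read 0 times and 1 time and Gp1bb 0 times. Endothelial markers summed to 31.2 and 21.7, and the part of either list in the level of Pdgfb was not tested. Lyve1- macrophages were at 126.3, 74.6, 71.8 and 72.5, with the control brain alone above the rest, and Lyve1+ macrophages were at 30.4, 31.1, 29.9 and 35.3, level across libraries. Outside the macrophages, NK/ILC1 cells were at 49.3, 61.6, 41.9 and 52.8 and Ly6C low monocytes, which patrol vessel walls, at 34.0, 61.3, 35.9 and 49.0. Infiltrating macrophages of the injured brain were at 10.5, against 3.99 in the T-like and B-like cells of that library, whereas the 22 infiltrating macrophages of the injured dura mater were at 101.9 from 48 UMIs. In those 22 cells the platelet and megakaryocyte genes other than Pf4 summed to 53.1 CPM, of which Ppbp was 48.8, against 4.30 in the infiltrating macrophages of the brain, and their part was not tested. The 62 endothelial-like cells, a known source of PDGF-B, were at 203.8. Microglia held 61.3% of all Pdgfb UMIs of the kept cells in control brain and 59.2% in injured brain.

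Pdgfa, the chain that signals through PDGFRα, was at 53.4 CPM in microglia of the control and 56.4 in those of the injured brain, from 270 and 604 UMIs. Infiltrating macrophages of the injured brain came close to that, at 43.4 (41.1 to 45.8), with a UMI in 48.2% of 1363 cells, against 0.97% of the T-like and B-like cells of that library; their median depth was 21871 UMIs. They held 58.7% of the Pdgfa UMIs of that library. Lyve1+ macrophages were at 19.2, 28.6, 23.3 and 29.8, and Lyve1- macrophages at 22.9, 26.4, 35.9 and 42.3, with both injured libraries above both controls in the second. Mast cells, found in numbers in the dura mater alone, were at 50.8 in control and 35.5 in injured dura mater.

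Pdgfc, a chain that must be cleaved before it binds its receptor, was a low transcript of Lyve1+ macrophages. It was at 9.58 (5.6 to 15.3), 31.6 (26.5 to 37.3), 10.6 (6.6 to 16.2) and 37.5 (33.6 to 41.6) CPM from 17, 139, 21 and 352 UMIs, so that both dura mater libraries lay above both brain libraries. A UMI was found in 10.9, 27.5, 10.5 and 38.1% of the cells. Lyve1- macrophages were at 1.06, 2.27, 0.37 and 3.02 and microglia at 0.59 and 0.65. In the injured brain, infiltrating macrophages were at 2.56, and with 81 UMIs they held 71.1% of the Pdgfc UMIs of that library, while Lyve1+ macrophages held 63, 78.1, 18.4 and 82.4% in the 4 libraries.

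Lyve1+ macrophages were then compared between dura mater and brain. Igf1 was higher in the dura mater by a log2 ratio of 1.004 (0.85 to 1.17) in the controls and 0.64 (0.49 to 0.79) after injury, Pdgfc by 1.72 (0.99 to 2.54) and 1.82 (1.18 to 2.53), and Hbegf by 1.58 (1.04 to 2.16) and 0.44 (0.06 to 0.85). A difference is called past 2-fold here where it is at least 2-fold, its interval lies off 0 and the gene has 10 or more UMIs over the pair of groups. By that rule Pdgfc was higher in both conditions and Igf1 and Hbegf in the controls alone, against 4.62% of 11227 genes called higher and 3.67% lower in the controls and 3.8% of 12000 higher and 2.88% lower after injury. Dura mater and brain cells were also of different make-up. Of the Lyve1+ macrophages, 31.9, 18.1, 20.3 and 16.2% fell into a subcluster rich in granulocyte transcripts, with S100a8 at 17993 to 44002 CPM against 175 to 447 in the remainder. Without that subcluster Igf1 was at 301.4, 504.8, 260.8 and 404.3, and the log2 ratio of dura mater over brain was 0.74 (0.56 to 0.94) and 0.63, Hbegf stood at 0.91 (0.30 to 1.57) and 0.19, and Pdgfc at 1.85 (0.88 to 3.01) and 1.83 (1.09 to 2.68). Igf1 and Hbegf were then no longer past 2-fold in the controls, and Pdgfc remained so. A list of 6 fibroblast genes summed to 2.25, 62.5, 1.01 and 32.9 CPM in the Lyve1+ macrophages, highest in the dura mater, and a list of 6 endothelial genes ran the other way, at 157.2, 67.5, 106.8 and 33.5. The part of either list in the difference was not tested.

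**Figure D3:**
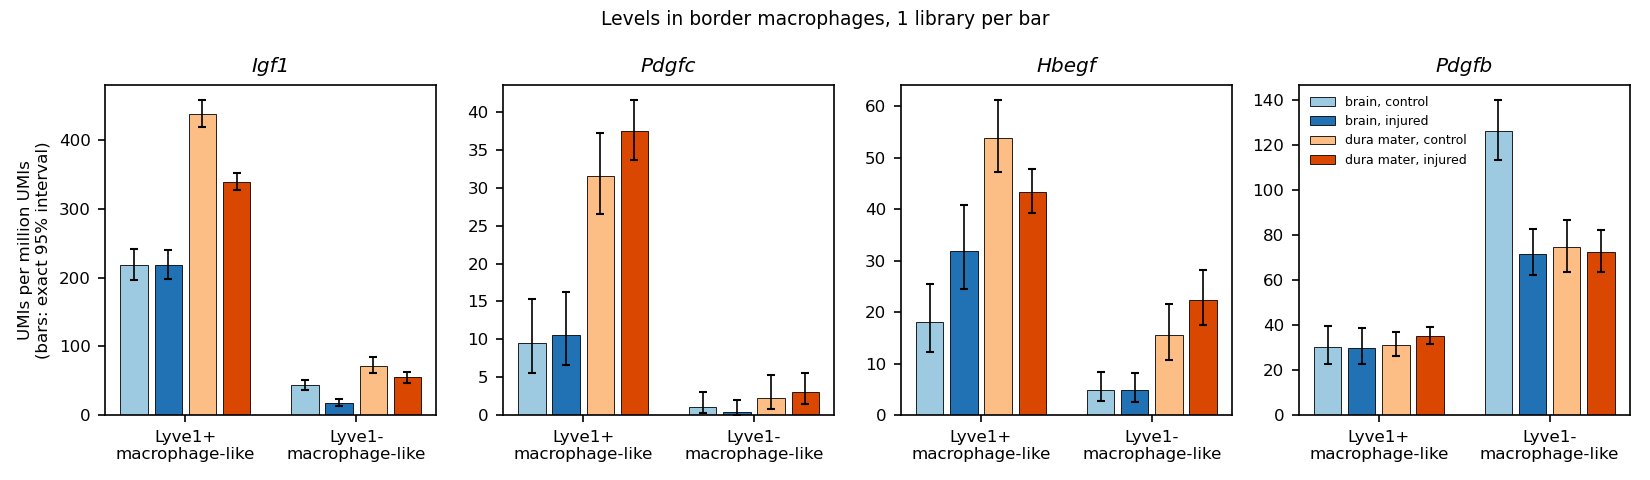
Igf1, Pdgfc, Hbegf and Pdgfb (CPM, bars from 0, exact 95% counting intervals) in Lyve1+ and Lyve1- macrophages of the 4 libraries. Igf1 and Pdgfc are higher in dura mater than in brain Lyve1+ macrophages, while Pdgfb is higher in Lyve1- macrophages, most of all in control brain at 126.3.

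Hbegf, the heparin-binding ligand of the EGF receptor, was highest, among the immune classes, in γδ T cells, the innate-like T cells of the meninges, at 80.1, 81.0, 47.1 and 80.7 CPM from 74, 71, 12 and 57 UMIs. A UMI was found in 26.6, 27.0, 13.3 and 24.5% of these cells, with the injured brain, the library with fewest of them, lowest. In injured brain the interval of the γδ T cells overlapped that of Lyve1+ macrophages. In control dura mater it overlapped that of an unnamed cluster with T cell and Lyve1+ macrophage genes, at 61.6. The 62 endothelial-like cells were at 84.6 over all libraries and at 131.2 in injured brain, above the γδ T cells of that library. Lyve1+ macrophages were at 18.0, 53.8, 31.9 and 43.3, Lyve1- macrophages at 4.94, 15.5, 4.76 and 22.4, and microglia at 16.2 in control and 10.3 in injured brain. In both macrophage classes the dura mater libraries were above the brain libraries. The infiltrating macrophages of injured brain were at 1.55, against 0.8 in the T-like and B-like cells of that library. Hbegf is also an early-response gene, and cells were freed with enzymes at 37 °C. A list of 12 early-response and heat shock genes, among them Fos, Jun and Hspa1a, summed to 12064, 12800, 10087 and 11174 CPM in γδ T cells, 23428, 20137, 24011 and 17832 in Lyve1+ macrophages, and 28074 and 14924 in control and injured microglia. In microglia that list and Hbegf were both lower in the injured library. In γδ T cells, where Hbegf was highest, the list was lower than in the macrophages, and its part in any level of Hbegf was not tested. Ereg, a related ligand, was not listed in any library, and 3 UMIs among the kept cells, the floor used here, would be 0.04 to 0.08 CPM.

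Hgf, the ligand of MET, was a low transcript of several classes, among them monocytes and the macrophages that enter after injury. Ly6C low monocytes were at 25.0, 35.7, 15.9 and 9.81 CPM from 14, 14, 27 and 3 UMIs, too few to order the libraries, and Ly6C hi monocytes at 9.4, 9.45, 5.72 and 7.44. After injury, the infiltrating macrophages of the brain were at 17.2 (15.8 to 18.7) from 543 UMIs in 28.1% of cells, and they held 75.2% of the Hgf UMIs of that library. Lyve1- macrophages were at 11.3, 9.10, 4.03 and 5.14, Lyve1+ macrophages at 6.76, 3.63, 3.54 and 3.62, and microglia at 2.97 in control and 3.36 in injured brain. Mast cells were at 14.7 in control and 6.91 in injured dura mater, and immature granulocytes at 5.88, 7.95, 3.48 and 5.47. In control dura mater 29.8% of the Hgf UMIs came from proliferating cells, of which a single cell held 25.

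Tgfb1 was the most abundant of the members and the least restricted to a class. Ly6C low monocytes were at 567, 518, 387 and 660 CPM, Ly6C hi monocytes at 424, 385, 468 and 373, microglia at 423 in control and 331 in injured brain, Lyve1+ macrophages at 258, 353, 247 and 313 and Lyve1- macrophages at 269, 347, 255 and 307. Infiltrating macrophages of the injured brain were at 259, within the range of the resident macrophages. B cells were at 237, 432, 195 and 455, with the dura mater above the brain, and ILC2 at 355, 520, 310 and 448. The B cells joined 2 clusters, with 394 and 103 cells in control brain and 77 and 276 in control dura mater. In the injured libraries they had 64 and 11 cells in the brain and 36 and 88 in the dura mater. The part of this mix in the difference was not tested. Granulocytes, at 95.5, 91.1, 62.4 and 57.0, and immature granulocytes, at 71.2, 64.9, 75.9 and 67.7, were at the low end among leukocytes. T cells were at 117, 235, 148 and 208. The endothelial-like cells were at 180 and the fibroblast-like cells at 78.

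Fgf2 and Grem1 were at the limit of detection. Fgf2 was read 23, 31, 24 and 34 times in the kept cells of the 4 libraries, and its highest immune level was in mast cells, at 6.78 CPM in control and 9.87 in injured dura mater from 6 and 10 UMIs. Fibroblast-like cells were at 35.4, above every leukocyte class. Grem1 was read 7 times among all barcodes of the injured brain and 3 times in kept cells, once each in a Lyve1- macrophage, an infiltrating macrophage and an endothelial-like cell.

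Injured and control libraries were then compared class by class over all genes that met the same minimum of 10 UMIs. In microglia 1 of 8 members, Pdgfb, was past 2-fold, and it was lower in injured brain (log2 ratio -1.06, -1.16 to -0.96), against 4.66% of all genes called higher and 5.78% lower. Over 9 alternatives that ratio ran from -1.33 to -0.40 and was past 2-fold in 5; a per-cell marker gate, the P2ry12-high cluster alone, thinning to 2000 UMIs and averaging over cells brought it under. The other members of microglia that lay off 0 were Igf1, Hbegf at -0.66 (-1.08 to -0.23) and Tgfb1 at -0.35 (-0.43 to -0.27), beside a median of -0.18 over all genes. Pdgfa stood at 0.08 and Hgf at 0.18.

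Among the border macrophages, Lyve1+ and Lyve1- combined, few members differed by much. In the brain 1 of 8 was past 2-fold, Hgf, which was lower (3.83 against 9.55 CPM from 18 and 44 UMIs; log2 ratio -1.32, -2.20 to -0.50), against 1% of genes called higher and 2.51% lower; it was not past 2-fold with a per-cell marker gate or after thinning. Pdgfb stood at -0.72 (-0.95 to -0.49), Hbegf at 0.69 (0.15 to 1.26) and Igf1 at -0.12. Within the brain Lyve1- macrophages Igf1 was lower after injury, at -1.29 (-1.80 to -0.80), whereas in the Lyve1+ macrophages it stood at 0.00. Without the subcluster rich in granulocyte transcripts, Igf1 in the brain Lyve1+ macrophages stood at -0.21 (-0.45 to 0.03). In the dura mater 1 of 8 was past 2-fold, Fgf2, lower from 15 and 7 UMIs (-2.04, -3.58 to -0.66), against 1.3% of genes called higher and 1.73% lower. There, Igf1 stood at -0.25 (-0.33 to -0.17) and Pdgfc at 0.39 (0.10 to 0.67), in opposite directions and both under 2-fold.

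Monocytes and dendritic cells showed members past 2-fold from few UMIs. In Ly6C hi monocytes of the brain 1 of 5 members was higher, Pdgfa, at 6.18 against 0.32 CPM from 27 and 1 UMIs (log2 ratio 4.25, 1.65 to 9.61), against 4.72% of genes called higher and 4.82% lower. In the same library, infiltrating macrophages held Pdgfa at 43.4. In Ly6C hi monocytes of the dura mater 1 of 6 was higher, Hbegf, from 21 and 6 UMIs (1.54, 0.19 to 3.14), against 2.09% higher and 2.36% lower. It was not past 2-fold by that rule with a per-cell marker gate (0.88) or with the T-like and B-like level subtracted (1.85). In conventional dendritic cells (cDC1 and cDC2 together) of the brain 1 of 6 was lower, Hbegf, from 2 and 9 UMIs (-3.24, -6.49 to -0.97), against 4.07% higher and 3.77% lower, and the 12 early-response and heat shock genes summed to 7924 against 11633 CPM in the same cells. In those of the dura mater 1 of 6 was higher, Pdgfa, at 14.6 against 4.41 from 56 and 19 UMIs (1.72, 0.95 to 2.56), against 2.54% higher and 1.64% lower. Pdgfb in conventional dendritic cells was lower in the injured brain, at 28.1 against 55.5, and higher in the injured dura mater, at 40.9 against 25.1, and only the first came near 2-fold. Granulocytes held little of any member but Tgfb1 and, in the dura mater, Igf1, so that 1 member reached 10 UMIs in the brain and 2 in the dura mater, with none past 2-fold, against 3% higher and 5.87% lower in the brain and 6.26% higher and 4.12% lower in the dura mater. Their Tgfb1 stood at -0.61 and -0.68.

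**Figure D4:**
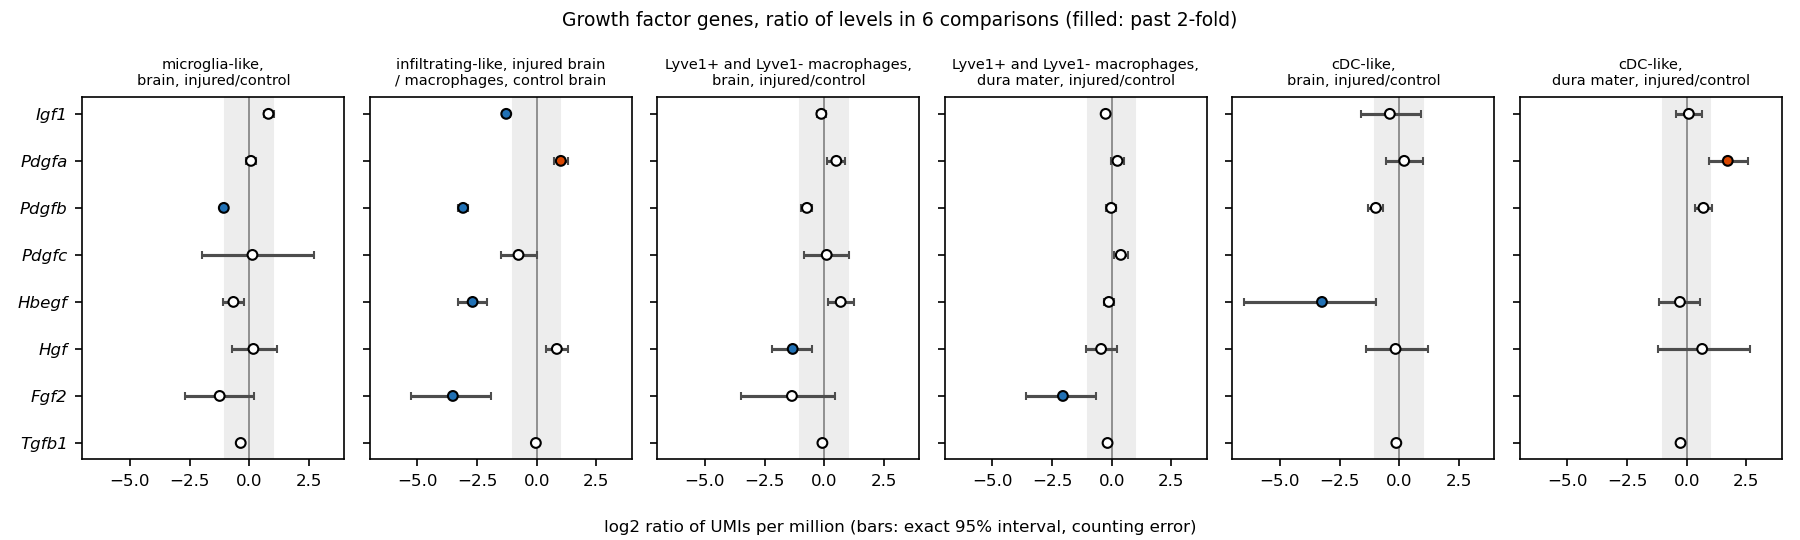
Log2 ratios of the members with exact 95% counting intervals in 6 comparisons of injured with control libraries; filled points are past 2-fold and the grey band spans -1 to 1. Fgf2, Pdgfb and Hbegf in the infiltrating macrophages lie at -3.51, -3.08 and -2.69, and most points for resident classes lie inside the band.

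The infiltrating macrophages, with Gpnmb, Arg1, Fabp5 and Spp1 as leading genes, numbered 1363 in injured brain against 7 in control brain and 0 in control dura mater, and they were therefore set beside the border macrophages of control brain. Pdgfa was higher (log2 ratio 1.01, 0.72 to 1.32), and Igf1 (-1.28, -1.42 to -1.13), Pdgfb (-3.08, -3.30 to -2.87), Hbegf (-2.69, -3.30 to -2.07) and Fgf2 (-3.51, from 6 and 10 UMIs) were lower, so that 1 of 8 members was past 2-fold higher and 4 of 8 lower. The background was 6.2% of genes higher and 19% lower, with a median over genes of -0.25, and the cells compared differ in depth, 21871 against 11380 UMIs. Hgf stood at 0.85 (0.40 to 1.33) and Tgfb1 at -0.03. The value for Igf1 turned on which border macrophages were used, as it was -2.26 against the Lyve1+ cells and 0.09 against the Lyve1- cells. Pdgfa sat at the edge of the 2-fold limit, since over 9 alternatives its ratio ran from 0.82 to 1.25 and it was past the limit in 4.

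Within the injured brain library the infiltrating macrophages could be compared with other classes that shared its droplets. Relative to Ly6C hi monocytes, Igf1 was higher by a log2 ratio of 5.06 (3.93 to 6.51), Pdgfa by 2.81, Hgf by 1.59 (1.01 to 2.23) and Pdgfb by 1.36, and Tgfb1 stood at -0.86. Pdgfc was read 81 times in the infiltrating macrophages and 0 times in these monocytes, a log2 ratio of at least 1.90 against a floor of 3 UMIs. Relative to microglia, Hgf (2.35) and Pdgfc (1.97) were higher and Pdgfb (-3.91), Hbegf (-2.73) and Igf1 (-0.87) lower. Relative to Lyve1+ macrophages, Hgf was higher (2.28) and Igf1 (-2.26), Pdgfc (-2.05) and Hbegf (-4.36) lower. Of the members, Hgf was thus the one that stood above microglia, both border macrophage classes and Ly6C hi monocytes, with a log2 ratio of 2.09 over Lyve1- macrophages. Over Ly6C low monocytes its ratio was 0.11, with an interval from -0.44 to 0.73 that spans 0.

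By summed UMIs, the source of a factor in a library also follows the number of cells sorted from each class. In control brain, Lyve1+ macrophages held 40.1% of the Igf1 UMIs and microglia 24.9%, and in injured brain infiltrating macrophages held 49.3%, microglia 30.5% and Lyve1+ macrophages 14.7%. The infiltrating macrophages were 30.7% of the kept cells of that library and supplied 43.6% of its UMIs. Their share of Igf1 was thus a little above their share of the UMIs, their shares of Pdgfa, Pdgfc and Hgf were further above it, and their share of Pdgfb, 11.6%, was below it. In the dura mater Lyve1+ macrophages held 69.8% in the control and 79.9% in the injured library. An unnamed cluster of 253 cells with both T cell and Lyve1+ macrophage genes held 16.4 and 13.5% in the control libraries; its Igf1 was at 102.8, 247.0, 65.7 and 159.7 CPM and its median depth was 19672 UMIs.

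**Figure D5:**
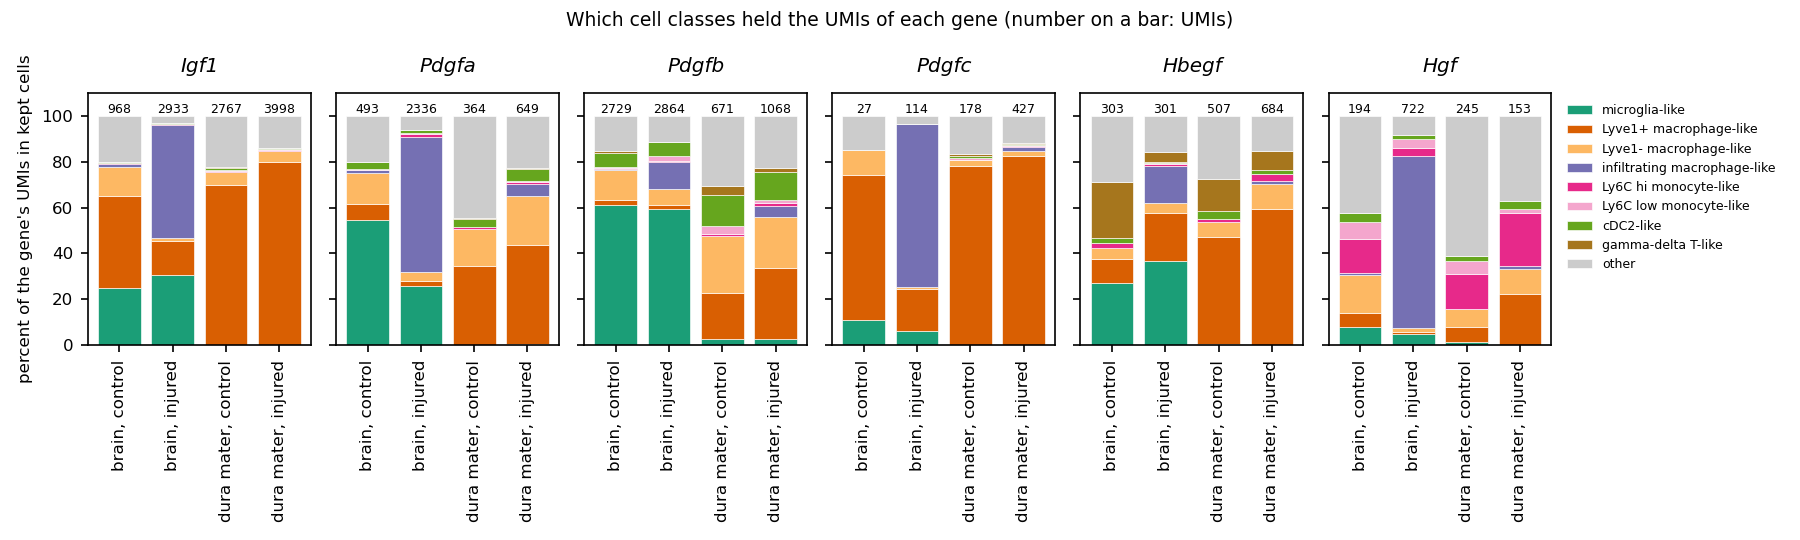
Percent of the UMIs of Igf1, Pdgfa, Pdgfb, Pdgfc, Hbegf and Hgf that came from each immune class, stacked per library, with the total of UMIs above each bar. Infiltrating macrophages hold 49.3% of Igf1, 58.7% of Pdgfa, 71.1% of Pdgfc and 75.2% of Hgf in injured brain, and Lyve1+ macrophages hold 69.8 and 79.9% of Igf1 in the dura mater.

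The receptors, binding proteins, activators and related ligands of these factors were read from a list of 76 genes, of which 75 were listed. In microglia 7 of the 40 with at least 10 UMIs were past 2-fold higher in injured brain and 5 lower, beside 4.66 and 5.78% of all genes, and in infiltrating macrophages 8 of 44 were higher than in control border macrophages and 16 lower, beside 6.2 and 19%. In border macrophages the counts were 5 higher and 0 lower of 40 in the brain, beside 1 and 2.51%, and 3 higher and 2 lower of 47 in the dura mater, beside 1.3 and 1.73%. In Ly6C hi monocytes they were 10 higher and 2 lower of 32 in the brain, beside 4.72 and 4.82%, and 4 higher and 0 lower of 33 in the dura mater, beside 2.09 and 2.36%. In conventional dendritic cells they were 10 higher and 3 lower of 39 in the brain, beside 4.07 and 3.77%, and 4 higher and 1 lower of 38 in the dura mater, beside 2.54 and 1.64%. In granulocytes they were 2 higher and 3 lower of 22 in the brain, beside 3 and 5.87%, and 4 higher and 2 lower of 26 in the dura mater, beside 6.26 and 4.12%. Igfbp6, a secreted protein that binds IGFs with a preference for IGF2, was past 2-fold higher in 10 of the 10 comparisons, and Thbs1 and Spint1 came next, past 2-fold in 6 each. Igfbp6 was at 30.9 CPM in infiltrating macrophages against 0.65 in control border macrophages, at 17.2 against 0.65 in injured and control brain border macrophages, at 7.56 against 0.91 in those of the dura mater, at 12.98 against 0.59 in microglia, at 49.9 against 1.95 in brain and 20.8 against 0.51 in dura mater Ly6C hi monocytes, and at 28.3 against 1.61 in brain dendritic cells. In T-like and B-like cells it was at 0.14, 0.32, 3.19 and 0.81 CPM, also highest in the injured brain. An unnamed cluster with 138 of its 155 cells in injured brain and 1 in control brain held it at 722.2 CPM, and the part of free RNA from it in these levels was not tested.

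Other partners differed in some classes and not all in one direction. Areg, an EGF receptor ligand, was at 17.0 CPM in border macrophages of injured brain and 0.87 in those of control brain, and at 2.61 and 9.69 in microglia, in the opposite direction. Thbs1, a matrix protein that can activate latent TGFβ, was at 84.0 in injured and 25.9 in control microglia and at 187 and 14.5 in brain dendritic cells, but at 388 and 1970 in brain and 566 and 2741 in dura mater granulocytes. Bmp2 was at 3.73 in infiltrating macrophages against 74.6 in control border macrophages and at 19.5 against 1.16 in dura mater dendritic cells of injured and control libraries. Igf2r, which clears IGF2 and carries lysosomal enzymes, was at 23.9 in infiltrating macrophages against 0.43. The receptors for PDGF were hardly read in leukocytes. The fibroblast-like cells held Pdgfra at 120.5 and Pdgfrb at 356.8, and Igf1r was at 385 in the endothelial-like cells.

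Across 64 groups of class and library with enough cells, 12095 genes were ranked by how closely their level followed each member, as Pearson's r, a description over groups that share libraries and depth. Igf1 was followed most closely by Gas6 (0.96), a ligand of the phagocytic receptor AXL, and by Folr2 and Cbr2 (0.93 each), markers of Lyve1+ macrophages. Pdgfa was nearest to Fblim1 (0.93), Pdgfb to Pea15a (0.82), Pdgfc to Chp2 and Gpt2 (0.92 each), Hbegf to Rhobtb1 (0.89), Hgf to AC163018.1 and Klhl5 (0.76 each) and Tgfb1 to Ptp4a2 (0.88). Between members, Igf1 and Pdgfc were alike (0.83), Igf1 and Pdgfa less so (0.69), and Igf1 and Hgf unrelated in this sense (0.04).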

How the data were processed

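CD45+ cells of 4 libraries were read with 10x Chromium 3′ v3 chemistry. The submitters' processing notes name Cell Ranger 3.1.0, Seurat 3.1.0 and mm10, and the values as deposited by the authors are natural log values, ln(1 + UMIs per 10000 UMIs of a cell), from which whole UMI counts were recovered. Barcodes with 1000 to 6000 genes and a mitochondrial share of up to 7% passed. Since the automatic threshold of Scrublet called 0.06% or fewer doublets, the top scores, 0.8% per 1000 barcodes, were removed instead. Cells were clustered at resolution 0.6 (Seurat 5.3.0, R 4.3.3; scanpy 1.11.5, SciPy 1.17.1, NumPy 2.4.6, Python 3.11.15), and a cluster was named from at least 3 detected markers, of which 2 stood among its top 10 genes.

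UMIs were summed per class and library. Poisson, Clopper-Pearson and conditional binomial intervals, all exact at 95%, were given for levels, shares and ratios; with 1 library per condition there is no test and no p-value. The ratio step was tested on simulated Poisson counts. These hold neither spread between libraries nor uneven UMIs among cells, so the simulation could not test either. Levels are per UMI of a 3′ assay and were not corrected for length. The named genes of the list of partners were the 3 largest ratios each way past 2-fold with at least 50 UMIs, and the likeness ranking gave the 3 nearest genes, of which some are printed. Members and lists were chosen with earlier results of these data known.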

Additional observations from a re-analysis of the deposited data

Results flagged for a closer look

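Pdgfb in conventional dendritic cells was singled out because it lay off 0 in opposite directions in the 2 tissues: the log2 ratio of injured over control was -0.98 (-1.29 to -0.67) in the brain and 0.71 (0.34 to 1.07) in the dura mater. The difference between the tissues was not tested. In cDC2, Pdgfb was at 64.0 and 31.5 CPM in control and injured brain and at 27.2 and 48.8 in control and injured dura mater, so that the 4 libraries crossed over in that subset.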

How the results depend on the processing

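The number of members past 2-fold was small and moved with the processing. In microglia it was 1, and 2 with a per-cell marker gate, with no filter on cells or with all variable genes, and 0 when cells were thinned to 2000 UMIs or levels averaged over cells. The log2 ratio of Pdgfb there ranged from -1.33 to -0.40. With the gate Pdgfb was not among the members past 2-fold. In the P2ry12-high cells of the finer clustering Igf1 was past 2-fold higher (1.41, 0.10 to 2.84) and Pdgfb was not past 2-fold. In infiltrating macrophages the number was 5, and 3 against Lyve1- macrophages alone and 6 against Lyve1+ macrophages alone, where Pdgfa (1.18) and Hgf (1.35) were higher and Igf1, Pdgfb, Pdgfc and Hbegf lower. Pdgfb (-3.65 to -2.91) and Hbegf (-3.44 to -2.06) stayed past 2-fold there in all 9 alternatives run and Pdgfa in 4 of 9. In border macrophages of the brain it was 1, and 2 with the gate or Lyve1- macrophages alone and 0 when thinned or with Lyve1+ macrophages alone; in the dura mater it was 1, and 0 with the gate, thinned, with at least 50 UMIs or with Lyve1+ macrophages alone. In Ly6C hi monocytes of the brain it was 1, and 2 with the gate, no filter on cells, doublets kept or all variable genes and 0 when thinned or with at least 50 UMIs. In those of the dura mater it was 1, and 0 with the gate, thinned or with at least 50 UMIs. With the T-like and B-like level subtracted it was also 1 there, but Tgfb1 in place of Hbegf. The T-like and B-like cells of the control and injured dura mater held Tgfb1 at 382 and 358 CPM, beside 385 and 373 in these monocytes. The subtraction thus removed nearly all of the Tgfb1 level, and that call cannot be read as a difference between the libraries. In granulocytes the number of members past 2-fold was 0, and 2 in the brain and 1 in the dura mater with the gate, and 1 in the dura mater with the T-like and B-like level subtracted. In dendritic cells of the brain it was 1, and 2 with the gate and 0 with no filter on cells or at least 50 UMIs; in the dura mater it was 1, and 3 with no filter on cells, 2 with the T-like and B-like level subtracted and 0 with the gate or thinned. The cause was not tested. Pdgfa in Ly6C hi monocytes of the brain turned to -0.058 on thinning, where the control library held 0 UMIs and the value is a lower bound against the floor of 3. With each ratio and level counted once per alternative setting, 47 of 493 ratio values moved outside the interval of the main value. The same held for 352 of 1383 level values, of which 94 came from thinning and 86 from subtracting the T-like and B-like level. The comparisons without the granulocyte-rich subcluster were chosen after seeing the data, as were the comparisons with Lyve1+ and Lyve1- macrophages apart and with the microglia subclusters apart. Fgf2, Pdgfc and Hgf are limited by depth in most classes. No paired analysis was possible because there was 1 library per condition, and for the same reason no replicate could be left out.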
